A study of Mus musculus with 96 samples.

Results

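Cd40, Cd83, Cd274 and Tnfsf9, 4 genes whose products sit on the surface of antigen-presenting cells and speak to lymphocytes, were followed in RAW 264.7 cells, a mouse macrophage-like line, across 16 combinations of ligand and time. They are 4 of the 10698 genes named on the array, chosen by symbol, which picked 5 of its 16281 probes: 9525 for Cd40, 10633 and 11452 for Cd83, 17735 for Cd274 and 5106 for Tnfsf9. The choice was made with earlier results of these data known, so member calls set beside the share of all genes are a description only. Cells received lipopolysaccharide (LPS, a component of Gram-negative bacteria sensed by Toll-like receptor 4) at 100 ng, with no volume stated, together with 100 pM LPS-binding protein. Others received interferon gamma (IFNG) at 5 nM or 2-methyl-thio-ATP (2MA, which stimulates purinergic receptors) at 500 uM, or LPS with its binding protein plus one of these at the same dose. Cells were taken at 1, 2 and 4 h, and with LPS alone also at 30 min, and the comparison RNA on every array came from untreated cells of the same set and time. Each of the 16 groups had 3 sets, each hybridised on 2 arrays with the dyes swapped, 96 arrays in all. A value is the log2 ratio of treated to untreated RNA, so 1 is a 2-fold rise, and a set value is the mean of both dye orientations.

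The CD40 receptor on a macrophage or dendritic cell binds CD40 ligand on a helper T cell and passes on an activating signal through TRAF adaptors and NF-kB. CD83 is an activation marker that keeps MHC class II and CD86 at the surface. Cd274 encodes PD-L1, the checkpoint ligand that engages PD-1 on T cells and restrains them, and Tnfsf9 encodes 4-1BB ligand, which co-stimulates activated T cells through 4-1BB. Toll-like receptor 4 acts early through NF-kB and later also through interferon regulatory factors, whereas the IFNG receptor acts through JAK kinases and IRF1. The arrays measure RNA, not the proteins at the surface.

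PD-L1 is the member best known as an IFNG target, and its promoter is shown beside those of the genes that followed it most closely across the 16 groups. The members matched in the promoter table numbered 1 of 4, Cd274. Of its 3 nearest genes by pattern, described further on, Igtp and Gbp3 are shown, both of which encode IFNG-induced GTPases. The stretches are the 250 bases before the annotated start, from RefSeq on GRCm38.p6, all on the plus strand: chr19:29367188-29367437 for Cd274, chr11:58199306-58199555 for Igtp and chr3:142559794-142560043 for Gbp3, the upstream of 2 Gbp3 starts in the table. Capitals mark matches, on either strand, to TTCNNNGAA (gamma-activated sequence) or to 2 copies of GAAA with any 2 bases between them (interferon-stimulated response element).
Cd274: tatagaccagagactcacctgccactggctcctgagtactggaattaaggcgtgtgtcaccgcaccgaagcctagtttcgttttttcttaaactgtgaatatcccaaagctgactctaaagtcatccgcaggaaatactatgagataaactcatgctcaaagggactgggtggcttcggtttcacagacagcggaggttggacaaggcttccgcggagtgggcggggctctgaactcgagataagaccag
Igtp: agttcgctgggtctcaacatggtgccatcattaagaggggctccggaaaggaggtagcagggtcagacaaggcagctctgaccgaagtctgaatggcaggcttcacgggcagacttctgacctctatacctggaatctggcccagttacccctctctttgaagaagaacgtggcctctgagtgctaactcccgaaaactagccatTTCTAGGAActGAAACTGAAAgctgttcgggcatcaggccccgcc
Gbp3: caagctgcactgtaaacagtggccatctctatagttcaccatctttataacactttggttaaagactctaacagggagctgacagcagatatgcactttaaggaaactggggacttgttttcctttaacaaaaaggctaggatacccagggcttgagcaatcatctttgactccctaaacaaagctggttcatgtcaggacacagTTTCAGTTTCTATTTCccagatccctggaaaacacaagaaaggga
Igtp holds 1 match to each of those motifs, 2 bases apart, and Gbp3 holds 2 overlapping matches to the latter within TTTCAGTTTCTATTTC. The Cd274 stretch holds no match to either, nor to GGG and CC with any 5 bases between them (NF-kB) or TGACTCA (AP-1), which says only that these letters are not in this window. Of 32851 promoter stretches of this length, 7.02% hold TTCNNNGAA, 2.98% the GAAA pair, 45.8% the NF-kB letters and 4.46% TGACTCA. The other promoters were added after the Cd274 stretch had been seen to hold no match. Of the 12 genes nearest to the 4 members 9 had an entry and were searched, and Igtp and Gbp3 are printed as the nearest to Cd274 that had one. Among the others, Rgl1, Dusp1, Dusp2, Ifrd1, Pim1 and Pde4b held the NF-kB letters before an annotated start. Pde4b, a gene near Cd83, also held TTCNNNGAA, and Cflar held no match. The stretch before the downstream Gbp3 start holds no match to any of the motifs.

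Each group mean was tested against 0, and groups against each other, with limma over all 11593 genes tested, and "passed the test" means a Benjamini-Hochberg adjusted p under 0.05. Shares of all genes are at that threshold. Counts at an unadjusted p under 0.05 were not made over all genes, so nothing is read from them. Between 13508 and 15004 probes had a value on an array. The labels do not say whether the sets were separate cultures, so p-values reflect only how much the sets varied, possibly for technical reasons. They also do not say whether treatments of the same set and time share untreated RNA, so comparisons between treatments may share controls. Ratios give no expression level, so the identity of the cells could not be checked by marker levels. Of the macrophage markers 6 of 8 were tested. After LPS with IFNG at 4 h 3 passed upward (all genes, 15.2%) and 1 downward (all genes, 18.8%), Csf1r at -1.29 ± 0.25 (SD, n = 3). The rule for named genes also picks Fcgr1 (1.97 after LPS with 2MA at 4 h), Adgre1 (0.94 after LPS at 4 h) and Cd68 (0.25 after LPS with IFNG at 4 h). Markers of other cell types were tested in the same 16 groups, in which from 1.04% to 34% of all genes passed. Of 3 T cell markers, 5 of 48 tests passed, all upward: Cd4 in 4 groups, at most by 0.49 ± 0.08 after LPS with IFNG at 1 h (SD, n = 3; limma adjusted p = 6.36e-06), and Cd3e in 1, by 0.40 ± 0.13 after LPS with IFNG at 2 h (0.0278). Of 3 dendritic cell markers, 2 of 48 passed, both upward and both Zbtb46, by 0.53 ± 0.32 after LPS with 2MA at 2 h (3.56e-05) and 0.29 ± 0.16 after LPS at 2 h (0.0286). Of the markers of B cells (2 genes), fibroblasts (3) and epithelium (2), 0 of 112 tests passed with limma, and 3 had an unadjusted p under 0.05. The part of these genes in the members' results was not tested. In such bulk RNA, a change in the share of responding cells and a change of RNA per cell cannot be told apart.

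LPS raised all 4 genes, but on different clocks: Cd83 and Tnfsf9 were up by 30 min, Cd40 from 1 h and Cd274 only from 2 h. At 30 min, Cd83 and Tnfsf9 were the 2 of 4 members that passed, against 1.04% of all genes tested. At 1 h, 3 of 4 passed (all genes, 5.61%), and all 4 passed at 2 h (all genes, 16%) and at 4 h (all genes, 28.6%). By 4 h Cd83 and Tnfsf9 had fallen back from their peaks, while Cd40 and Cd274 stood at their highest.

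Tnfsf9 read 1.39, 2.32 and 2.01 in the 3 sets at 30 min and 2.32, 2.62 and 2.24 at 1 h, then 2.26, 2.38 and 1.66 at 2 h and 0.79, 1.21 and 1.55 at 4 h. All sets lay above 0 at every time, and the sets at 4 h lay below all of those at 2 h. The means were 1.91 ± 0.48 (SD, n = 3; limma adjusted p = 2.06e-08), 2.39 ± 0.20, 2.10 ± 0.38 and 1.18 ± 0.38 (adjusted p = 1.56e-05), so the rise was 5.26-fold at 1 h and 2.27-fold at 4 h. The fall between 2 and 4 h was -0.92 ± 0.29 (SE; limma adjusted p = 0.0484, with 6.89% of all genes passing). That call is narrow: the adjusted p was 0.689 without set 1 and 0.174 without set 2.

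Cd83 read 1.50, 2.28 and 2.99 at 30 min, 3.50, 3.17 and 3.55 at 1 h, 4.37, 3.87 and 3.40 at 2 h, and 2.89, 2.66 and 2.52 at 4 h. The 30 min sets spread the most, and none of the 4 h sets reached the lowest 1 h or 2 h set. Its mean peaked at 3.88 ± 0.49 at 2 h, a 14.7-fold rise (SD, n = 3; limma adjusted p = 1.81e-17), and was 2.69 ± 0.19 at 4 h. The fall of -1.19 ± 0.30 (SE) between 2 and 4 h passed with an adjusted p of 0.00834 (limma), and with 0.0692 without set 1 and 0.0904 without set 2 it did not.

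Cd40 read 0.09, 0.24 and 0.49 at 30 min, which did not pass, and 1.46, 2.01 and 1.33 at 1 h. It read 3.73, 3.02 and 2.56 at 2 h and 5.10, 4.45 and 4.26 at 4 h. The sets of the 4 times did not overlap. The mean at 4 h was 4.60 ± 0.44 (SD, n = 3), a 24.3-fold rise (limma adjusted p = 5.55e-19). Each step passed: 1.33 ± 0.33 from 30 min to 1 h (SE; limma adjusted p = 0.0390, all genes 0.699%), 1.50 ± 0.33 from 1 to 2 h (0.00485, all genes 2.43%) and 1.50 ± 0.33 from 2 to 4 h (0.00211). The first step did not pass when any 1 set was left out (adjusted p from 0.116 to 0.739), the second did not without set 1 (0.114) nor the third without set 3 (0.0621).

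Cd274 read 0.23, 0.08 and 0.16 at 30 min and 0.07, -0.44 and 0.11 at 1 h, on both sides of 0 at the later time. It then read 1.47, 1.96 and 1.31 at 2 h. At 4 h, sets 2 and 3 read 3.57 and 3.34, and set 1 had no value because its probe was listed at exactly 0, read as missing, on 1 of its arrays. The means were 1.58 ± 0.34 at 2 h (SD, n = 3; limma adjusted p = 1.95e-10) and 3.45 ± 0.16 at 4 h (n = 2; adjusted p = 7.37e-18), a 2.99-fold and a 10.96-fold rise. The sets of 1, 2 and 4 h did not overlap, and the steps of 1.67 ± 0.22 and 1.87 ± 0.24 (SE) passed with limma adjusted p-values of 1.51e-06 and 5.17e-07.

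**Figure D1:**
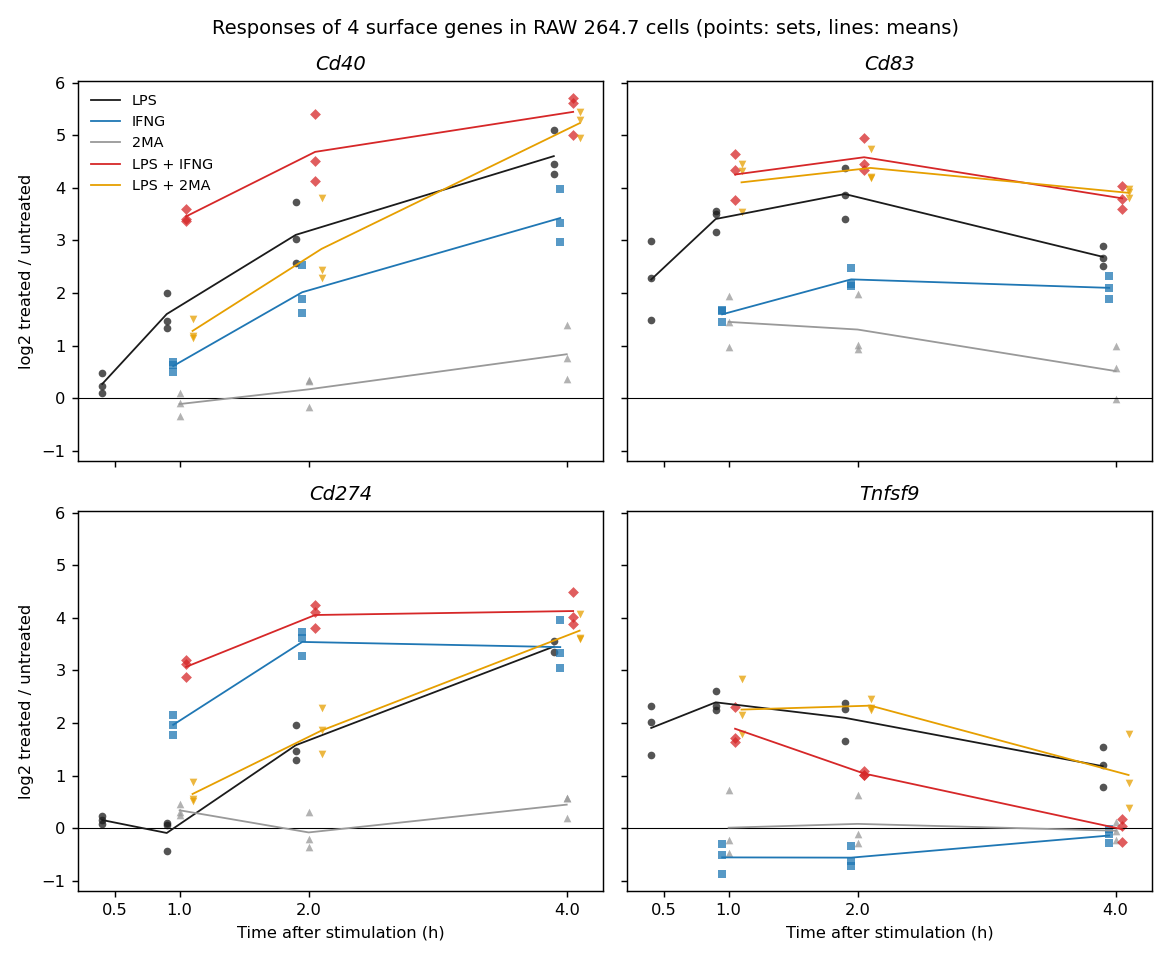
Log2 ratio of treated to untreated RNA (y axis) against hours of treatment (x axis) for each gene, with 1 point per set, shifted slightly sideways by treatment, and lines through the means. After LPS alone Tnfsf9 and Cd83 are up at 30 min and lower at 4 h than at 2 h, while Cd40 and Cd274 climb to 4.60 and 3.45 at 4 h, and Tnfsf9 is the gene whose LPS with IFNG line returns to 0 (-0.02 at 4 h).

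IFNG alone gave another order: Cd274 and Cd83 rose first, Cd40 followed from 2 h and Tnfsf9 did not rise. At 1 h 2 of 4 members passed, against 1.13% of all genes, and at 2 h (all genes, 3.43%) and 4 h (all genes, 12.3%) 3 of 4 did. Cd274 read 1.96, 2.16 and 1.78 at 1 h, 3.62, 3.72 and 3.28 at 2 h and 3.04, 3.33 and 3.96 at 4 h. The 1 h sets lay below all later ones, and those of 2 and 4 h overlapped. The mean was 1.97 ± 0.19 at 1 h (SD, n = 3; limma adjusted p = 3.72e-12), 3.91-fold, and reached 3.54 ± 0.23 at 2 h, 11.7-fold.

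At 1 h, Cd274 was therefore 2.05 ± 0.22 higher after IFNG than after LPS (SE; limma adjusted p = 1.01e-08, all genes 2.55%), and at 2 h 1.96 ± 0.22 higher (1.07e-08, all genes 7.06%). At 4 h the difference was -0.01 ± 0.24 (adjusted p = 0.993), with a 95% interval from -0.50 to 0.48, and the sets overlapped (all genes, 10%). Tnfsf9, by contrast, was lower after IFNG than after LPS at 1 h, with a difference of -2.95 ± 0.29 (SE; limma adjusted p = 2.03e-09).

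Tnfsf9 after IFNG read -0.50, -0.30 and -0.86 at 1 h, -0.71, -0.63 and -0.33 at 2 h and -0.12, -0.02 and -0.27 at 4 h. All 6 arrays lay below 0 at 1 h and at 2 h, and 5 of 6 at 4 h. The means of -0.55 ± 0.28, -0.56 ± 0.20 and -0.14 ± 0.13 (SD, n = 3) did not pass (limma adjusted p = 0.485, 0.203 and 0.793). With the spread taken from those groups alone, the first 2 had adjusted p-values of 0.0169 and 0.00419.

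Cd83 after IFNG read 1.67, 1.46 and 1.66 at 1 h, with a mean of 1.60 ± 0.12 (SD, n = 3; limma adjusted p = 1.61e-06), and 2.26 ± 0.19 and 2.10 ± 0.22 at 2 and 4 h. These responses were lower than those to LPS at 1 h by -1.81 ± 0.30 (SE; adjusted p = 7.17e-05) and at 2 h by -1.62 ± 0.30 (0.000199), and at 4 h the difference of -0.59 ± 0.30 did not pass (0.288). Cd40 after IFNG read 0.51, 0.64 and 0.70 at 1 h (0.61 ± 0.10, limma adjusted p = 0.495), above 0 on all 6 arrays. It rose by 2.02 ± 0.47 at 2 h (SD, n = 3; adjusted p = 2.23e-08) and by 3.43 ± 0.51 at 4 h, a 10.8-fold rise (1.01e-14). At 1 h Cd40 was -0.99 ± 0.33 (SE) lower after IFNG than after LPS, with an adjusted p of 0.133. It was 0.00433 with the set number as a random block and 0.0512 with it as a fixed block. Here and below, the random block is the set number within each time, and the fixed block the set number over all times. At 2 and 4 h it was lower by -1.09 ± 0.33 (0.0329) and -1.18 ± 0.33 (0.0143). Neither call is firm: the first was lost when any 1 set was left out (adjusted p from 0.0558 to 0.239), and the second without set 1 or 2 (up to 0.180).

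2MA alone moved Cd83 and little else among the members. Cd83 read 1.94, 1.44 and 0.97 at 1 h and 1.98, 0.94 and 1.01 at 2 h, and 0.99, -0.01 and 0.57 at 4 h. The sets of 1 and 2 h lay above 0, and those of 4 h reached it. The means were 1.45 ± 0.48 at 1 h (SD, n = 3; limma adjusted p = 3.06e-05), 2.74-fold, and 1.31 ± 0.58 at 2 h (0.000176, and 0.0874 without set 1), when Cd83 was the 1 member of 4 that passed (all genes, 1.41% at 1 h and 1.33% at 2 h). At 4 h its mean of 0.52 ± 0.50 did not pass (0.289).

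Cd40 was the 1 member that passed at 4 h of 2MA (all genes, 2%). It read 1.39, 0.37 and 0.76, a mean of 0.84 ± 0.51 (SD, n = 3; limma adjusted p = 0.0469), and leaving out any 1 set ended the call (adjusted p from 0.0568 to 0.503). Cd274 at the 3 times was 0.34 ± 0.11, -0.08 ± 0.35 and 0.45 ± 0.22, and Tnfsf9 0.01 ± 0.64, 0.09 ± 0.48 and -0.04 ± 0.17, none of which passed. In Tnfsf9 at 1 h, set 2 read 0.73 and the others -0.22 and -0.47.

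Against LPS at the same time, 2MA left 3 of 4 members lower at 1 h (all genes, 1.54%) and all 4 at 2 h (4.84%) and 4 h (14.7%). The difference was largest for Cd40 at 4 h, at -3.76 ± 0.33 (SE; limma adjusted p = 1.91e-11), where the sets of the compared groups did not overlap. Cd40 at 1 h was lower by -1.71 ± 0.33 (0.00121, and 0.0780 without set 2). Cd274 at 1 h, where neither ligand alone passed against untreated cells, did not pass (0.43 ± 0.22, 0.543).

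The 2 probes of Cd83 can be set against each other. Probe 11452 was not tested, because 7 of its 96 values were listed at 0, all in the IFNG groups of 1 and 4 h. Over the 43 set values that both probes had, 11452 minus 10633 ran from -0.36 to 0.24 with a median of -0.06, and all 43 were within 0.5. At 2 h of LPS, for example, probe 11452 read 4.07, 3.98 and 3.23 where 10633 read 4.37, 3.87 and 3.40.

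**Figure D2:**
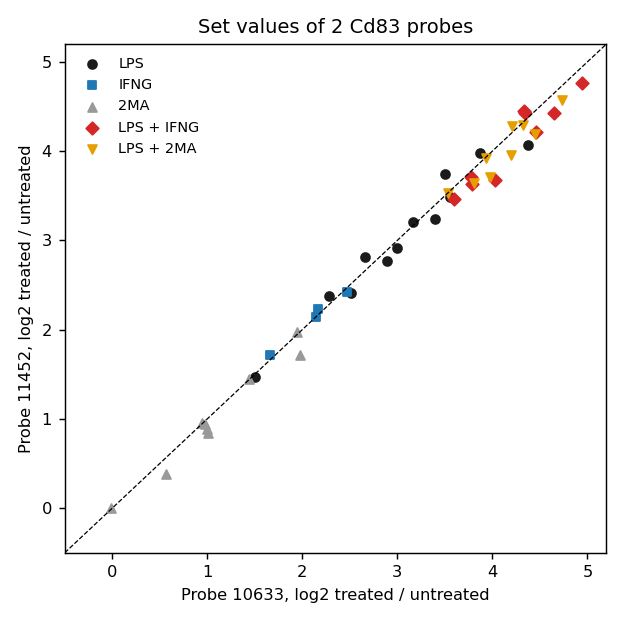
Set values of the tested Cd83 probe 10633 (x axis) and the untested probe 11452 (y axis), both as log2 treated over untreated, with the dashed line marking equal values. The 43 points lie within -0.36 to 0.24 of the line in all treatments.

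IFNG given with LPS raised Cd274 and Cd40 above LPS alone early and left Tnfsf9 below it late. At 1 h 2 of 4 members passed this comparison, against 1.01% of all genes, at 2 h 3 of 4 (all genes, 2.74%) and at 4 h 2 of 4 (all genes, 4.15%). With both ligands all 4 members passed against untreated cells at 1 h (all genes, 7.62%) and 2 h (all genes, 20.8%), and 3 of 4, without Tnfsf9, at 4 h (all genes, 34%).

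Cd274 with both ligands read 3.12, 2.88 and 3.20 at 1 h, when LPS alone read near 0. The difference was 3.16 ± 0.22 (SE; limma adjusted p = 1.50e-13), and at 2 h, with 4.24, 4.11 and 3.81, it was 2.47 ± 0.22 (7.18e-11). The sets of the pair of groups did not overlap at either time. At 4 h the joint sets read 4.02, 3.88 and 4.48, each above both LPS sets, and the difference of 0.68 ± 0.24 did not pass (adjusted p = 0.131), while with the set number as a random block it was 0.72 and passed (0.00758), and as a fixed block 0.68 and did not (0.102). The difference shrank between 1 and 4 h by -2.48 ± 0.32 (SE; limma adjusted p = 4.16e-06, all genes 1.32%), a comparison added after the values were seen, and of the 4 members only Cd274 passed it.

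LPS also added to IFNG on Cd274. The joint response exceeded IFNG alone by 1.10 ± 0.22 at 1 h (SE; limma adjusted p = 0.00103, all genes 2.52%), although LPS alone read -0.09 then. At 2 h the excess was 0.51 ± 0.22 (adjusted p = 0.181, 0.0361 with the set number as a random block and 0.149 as a fixed one), and at 4 h 0.69 ± 0.22 (0.0313). The 1 h call was lost without set 1 (0.178), and the 4 h call without set 1 (0.561) or set 2 (0.0656). All 4 members were higher with both ligands than with IFNG at 1 h, and 3 of 4 at 2 h (all genes, 8.01%) and at 4 h (all genes, 11.1%), the exceptions being Cd274 at 2 h and Tnfsf9 at 4 h. Cd40 exceeded IFNG alone by 2.84 ± 0.33 at 1 h and 2.02 ± 0.33 at 4 h (SE; limma adjusted p = 7.26e-08 and 2.14e-05), and Cd83 by 2.66 ± 0.30 and 1.70 ± 0.30 (4.68e-08 and 7.95e-05).

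Cd40 with both ligands read 3.40, 3.59 and 3.38 at 1 h, above the highest LPS set of 2.01, and its joint mean of 3.46 ± 0.12 was a 10.98-fold rise (SD, n = 3). The excess over LPS was 1.86 ± 0.33 at 1 h (SE; limma adjusted p = 0.000352) and 1.58 ± 0.33 at 2 h (0.00235). Without set 3 these had adjusted p-values of 0.0554 and 0.142. At 4 h the joint sets read 5.70, 5.01 and 5.62, and the excess of 0.84 ± 0.33 had an adjusted p of 0.195, of 0.0135 with the set number as a random block and of 0.0903 as a fixed one. The 4 h mean, 5.44 ± 0.38, was a 43.5-fold rise and the highest of the 64 member means.

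Tnfsf9 moved the other way. With both ligands it read 1.72, 2.31 and 1.65 at 1 h, 1.02, 1.01 and 1.10 at 2 h and -0.26, 0.04 and 0.18 at 4 h. At 2 and 4 h every set lay below every LPS set of the same time, and the 4 h sets lay on both sides of 0. The difference from LPS was -0.50 ± 0.29 at 1 h (SE; limma adjusted p = 1.00), -1.06 ± 0.29 at 2 h (0.0359) and -1.20 ± 0.29 at 4 h (0.00907). The 2 h call was lost without set 1 (0.453) or set 2 (0.184), and the 4 h call without set 1 (0.140) or set 3 (0.0746). At 4 h the joint response was 0.12 ± 0.29 above IFNG alone, with a 95% interval from -0.47 to 0.71.

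Cd83 with both ligands read 4.34, 3.77 and 4.65 at 1 h, 4.94, 4.34 and 4.46 at 2 h, and 4.03, 3.59 and 3.78 at 4 h. The excess over LPS was 0.85 ± 0.30, 0.70 ± 0.30 and 1.11 ± 0.30 (SE) at the 3 times, and the sets overlapped at 2 h alone. The last of these passed (limma adjusted p = 0.507, 0.326 and 0.0214), and it did not when any 1 set was left out (adjusted p from 0.0724 to 0.183).

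With 2MA added to LPS, no member passed against LPS alone in the fit without a block, and the largest difference was that of Cd83 at 4 h. All 4 members passed against untreated cells at 1 h (all genes, 5.45%), 2 h (all genes, 17.8%) and 4 h (all genes, 33.4%), and 0 of 4 passed against LPS alone at 1 h (all genes, 0.0776%), 2 h (0.0949%) or 4 h (0.354%) with limma. Cd83 at 4 h read 3.81, 3.93 and 3.98 with 2MA and 2.89, 2.66 and 2.52 without. The sets did not overlap, and the difference of 1.22 ± 0.30 (SE) had a limma adjusted p of 0.0624, of 0.00258 with the set number as a random block and of 0.0186 as a fixed one. An unadjusted limma p under 0.05 was seen for 3 of the 12 differences, Cd83 at 1 and 4 h and Cd274 at 1 h, with no share of all genes at that level.

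Against 2MA alone, LPS with 2MA stood higher for 3 of 4 members at 1 h (all genes, 1.44%) and for all 4 at 2 h (5.12%) and 4 h (17.9%). Cd40 exceeded 2MA by 1.39 ± 0.33 at 1 h (SE; limma adjusted p = 0.0151, and up to 0.215 without set 2 or 3) and by 4.39 ± 0.33 at 4 h (2.52e-13). Tnfsf9 exceeded it by 2.24 ± 0.29 at 1 h (1.51e-06) and by 1.06 ± 0.29 at 4 h (0.00742, and 0.237 without set 3).

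Cd274 at 1 h read 0.52, 0.57 and 0.87 with LPS and 2MA, against 0.07, -0.44 and 0.11 with LPS. The joint mean of 0.65 ± 0.19 passed against untreated cells (SD, n = 3; limma adjusted p = 0.00391, and 0.102 without set 1). The difference from LPS of 0.74 ± 0.22 (SE) did not pass (0.574, and 0.396 with the set number as a fixed block), and passed with it as a random block (0.0423). Of the other differences from LPS, those of Cd40 were -0.32, -0.27 and 0.63 at 1, 2 and 4 h, with 95% intervals from -0.99 to 0.35, from -0.93 to 0.40 and from -0.04 to 1.29. Those of Tnfsf9 were -0.14, 0.23 and -0.17, with intervals from -0.73 to 0.46, -0.36 to 0.82 and -0.76 to 0.43, so a change as large as 2-fold lay outside all 3 intervals.

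**Figure D3:**
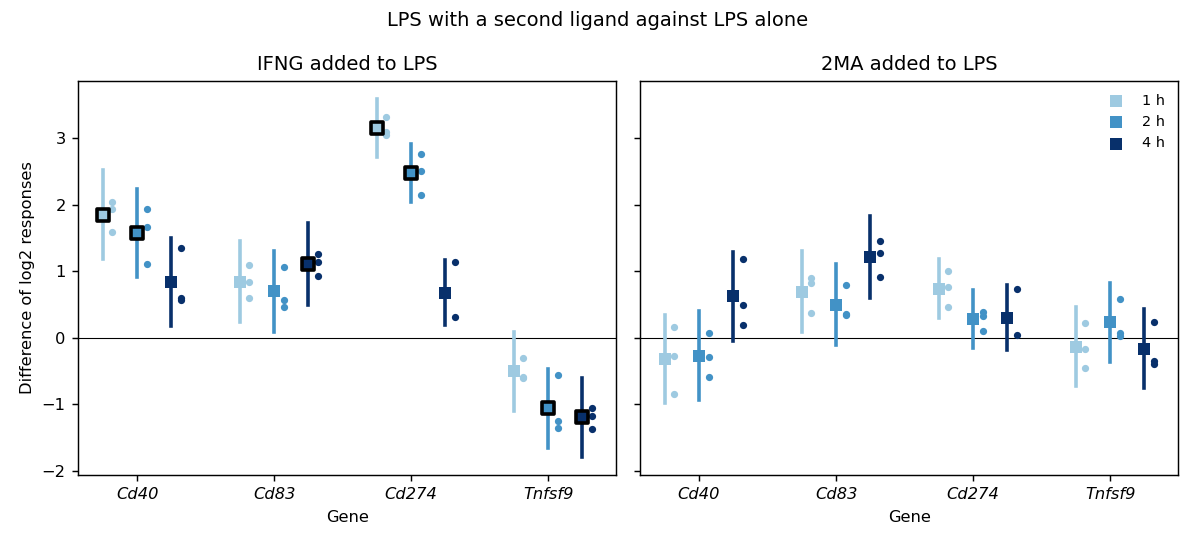
Difference between the log2 response to LPS with a second ligand and to LPS alone (y axis) for each gene (x axis) at 1, 2 and 4 h, with squares for the estimates, vertical lines for 95% intervals, small points for the differences by set, and black outlines for those that passed the test. With IFNG, Cd274 falls from 3.16 at 1 h to 0.68 at 4 h and Tnfsf9 lies below 0, and with 2MA no square is outlined.

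The joint responses were then compared with the sum of the single responses on the log2 scale, where 0 means that the fold changes multiply. The deposited values have a ceiling of 6.64, at which 14 of them lie. At the negative of that value 0 lie, and a rise with treated RNA in Cy3 is negative in the deposited ratios. A ceiling on rises is therefore shown for treated RNA in Cy5 only. For LPS and IFNG at 4 h the sum was 8.03 for Cd40 and 6.90 for Cd274, above that ceiling. Arrays with treated RNA in Cy5 could not read a joint response of that size, so the test against 0 was set aside for both genes. They were the 2 of 4 members past the threshold there (all genes, 2.71%), from which nothing is read. As a description, Cd40 lay from the sum by -2.74, -2.40 and -2.62 in the 3 sets (mean -2.59), and the ceiling lay from it by -1.38. Cd274 lay from its sum by -3.02 and -2.82 in the 2 sets measured (-2.77 from the group means), and the ceiling by -0.25. The joint means themselves, 5.44 and 4.13, were below the ceiling. All other sums of the members, with IFNG or 2MA, lay below it. At 2 h Cd83 was the 1 member that passed (all genes, 0.371%), with -1.57, -1.70 and -1.41, on average -1.56 ± 0.37 (0.0403). Without set 1, 2 or 3 its adjusted p was 0.159, 0.641 and 0.157.

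At 1 h, 0 of 4 members passed with limma (all genes, 0.0776%). An unadjusted p under 0.05 was seen for 3, with no share of all genes at that level. Cd40 and Cd274 lay above the sum in every set. Cd274 exceeded it by 1.10, 1.16 and 1.31, on average 1.19 ± 0.26 (SE; limma adjusted p = 0.0778, 0.00681 with the set number as a random block and 0.0532 as a fixed one), and Cd40 by 1.43, 0.95 and 1.34, on average 1.24 ± 0.40 (1.00). At 2 h Cd274 lay below it by -0.86, -1.58 and -0.77, on average -1.07 ± 0.26 (0.0654). Tnfsf9 at 4 h was below the sum by -0.93, -1.15 and -1.10, on average -1.06 ± 0.36 (0.133, 0.0237 with the set number as a random block and 0.0378 as a fixed one). For LPS and 2MA, 0 of 12 such differences passed with limma (all genes, 0.0173% at 1 and 2 h and 0.0604% at 4 h). An unadjusted p under 0.05 was seen for 2 of the 12, again with no share of all genes at that level.

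**Figure D4:**
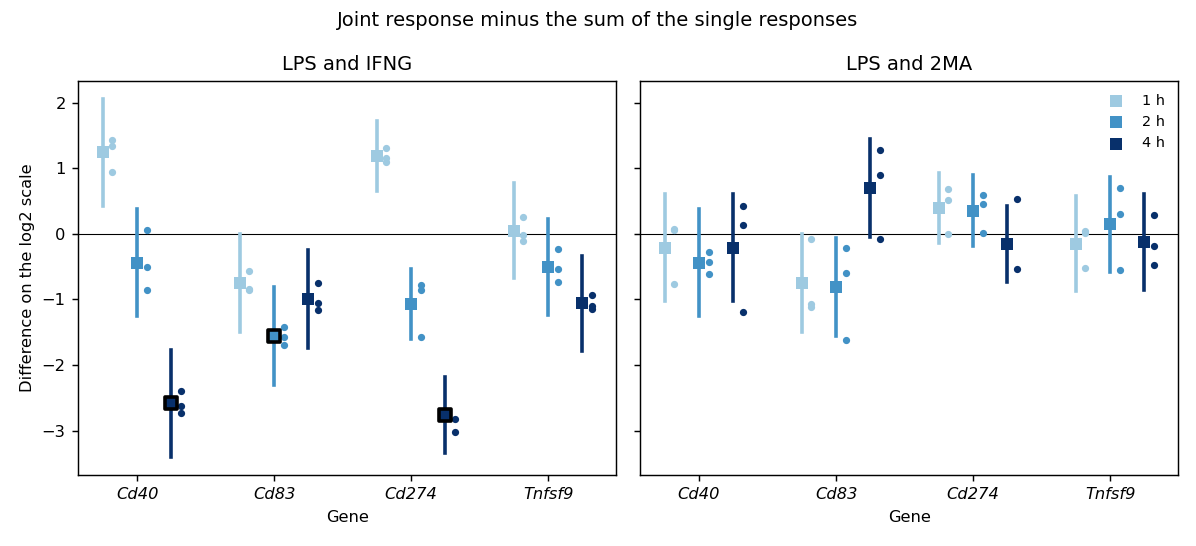
Joint log2 response minus the sum of the single log2 responses (y axis) for each gene (x axis), with squares for the estimates, vertical lines for 95% intervals, points by set, and black outlines for those that passed the test. For LPS and IFNG, Cd40 and Cd274 lie above 0 at 1 h (1.24 and 1.19) and below it at 4 h (-2.59 and -2.77), where their sums exceed the ceiling of the values and the outlines carry no weight.

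Across the 16 groups, the orders of the responses differed by member, and most neighbours in each order overlapped. Of 15 neighbouring pairs, the sets were apart in 2 for Cd40, 4 for Cd83, 3 for Cd274 and 2 for Tnfsf9. No such count was made over all genes, so nothing is read from these. Cd40 ran from 5.44 after LPS with IFNG at 4 h to -0.11 after 2MA at 1 h, Cd83 from 4.58 after LPS with IFNG at 2 h to 0.52 after 2MA at 4 h, and Cd274 from 4.13 after LPS with IFNG at 4 h to -0.09 after LPS at 1 h. Tnfsf9 ran from 2.39 after LPS at 1 h to -0.56 after IFNG at 2 h. In all, 15 of 16 responses passed for Cd83, 12 for Cd40, 11 for Cd274 and 9 for Tnfsf9, and all of these were rises. By group, from 1.04% to 34% of all genes passed, in either direction. The number of groups passed per gene was not counted over all genes, so nothing is read from these counts either.

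The likeness of 2 genes was described by Pearson's r over the 16 group means, which share arrays and the untreated RNA, so it carries no p. Cd40 and Cd274 were the most alike of the members (r = 0.863), and Cd83 was nearer to Tnfsf9 (0.675) and Cd40 (0.658) than to Cd274 (0.433). Tnfsf9 had an r of 0.119 with Cd40 and -0.248 with Cd274. Nearest to Cd274 among all genes were Batf2 (0.984), Igtp (0.975) and Gbp3 (0.97), the promoters of the latter pair being those shown. Igtp read -0.13 ± 0.14 at 1 h of LPS and 2.57 ± 0.12 at 1 h of IFNG (SD, n = 3).

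Nearest to Cd40 were Kcnk3 (0.967), a potassium channel gene, Cxcl16 (0.966), a chemokine gene, and Rgl1 (0.964). The likeness is in shape, not size: at 4 h of LPS with IFNG, Kcnk3 was at 0.63 ± 0.27 and Cxcl16 at 2.73 ± 0.29, against 5.44 for Cd40. Nearest to Cd83 were the kinase gene Pim1 (0.951), the phosphodiesterase gene Pde4b (0.938) and Cflar (0.921), which encodes a caspase inhibitor. Nearest to Tnfsf9 were Ifrd1 (0.96) and the phosphatase genes Dusp2 (0.912) and Dusp1 (0.906).

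Genes that act with the members were followed as lists. Over all genes tested, 3.13% rose and 2.48% fell at 1 h of LPS, 12.7% and 15.9% at 4 h of LPS, and 1% and 0.129% at 1 h of IFNG. At 4 h, 6.31% rose and 5.99% fell with IFNG, and 15.2% and 18.8% with LPS and IFNG. Of the other B7 and CD28 family genes 7 of 12 were tested. After LPS with IFNG at 4 h 2 of them rose and none fell, and the median of the list was 0.12 against -0.01 for all genes. The 2 were Cd80 (1.83 ± 0.62, SD, n = 3; limma adjusted p = 1.22e-11) and Cd86 (1.34 ± 0.65; 1.03e-07), which encode the ligands of CD28 and CTLA-4. Cd86 read 0.35 ± 0.27 after LPS alone (0.174) and 0.34 ± 0.39 after IFNG alone (0.282). The excess over LPS at 4 h was 1.05 ± 0.24 for Cd80 and 0.99 ± 0.26 for Cd86 (SE; limma adjusted p = 0.00463 and 0.0151). Pdcd1, the gene of the PD-1 receptor itself, rose by 1.24 ± 0.28 after LPS at 4 h (3.10e-08) and read 0.06 ± 0.47 after LPS with IFNG, a difference of -1.18 ± 0.22 (SE; 0.000435). The largest response of Pdcd1 was 1.49 after LPS with 2MA at 4 h, where Ctla4, which encodes an inhibitory receptor, was at -0.32 (0.00540).

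Of the TNF family ligands 12 of 16 were tested, and 3 rose and none fell after LPS at 4 h (list median 0.15, all genes 0.00). Tnf itself rose by 3.44 at 1 h of LPS and by 3.97 ± 0.27 at 2 h of LPS with 2MA (SD, n = 3; limma adjusted p = 3.07e-13). Of the TNF family receptors 14 of 17 were tested, and 4 rose and none fell after LPS at 4 h. They included Fas, the death receptor, at 3.74 ± 0.47, and Tnfrsf1b, a TNF receptor, at 3.43. Tnfrsf9, the receptor of 4-1BB ligand, and Icosl were not analysed here. Of the ligands, Tnfsf14 (LIGHT) was highest after IFNG at 1 h (1.44), and Ltb (lymphotoxin beta, 1.21) and Tnfsf13b (BAFF, 0.94) after LPS with 2MA at 4 h. Of the receptors, Tnfrsf1a, a TNF receptor, and Tnfrsf12a were highest after LPS with IFNG at 2 h (1.99 and 1.79).

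CD40 and NF-kB signalling genes, 14 of 16 tested, moved with LPS early: 8 rose and none fell at 1 h, with a list median of 0.97 against -0.01 for all genes. At 4 h of LPS 11 rose and none fell. Traf1, an adaptor of TNF family receptors, was at 2.62 at 1 h, and Tnfaip3, the feedback inhibitor A20, at 1.99 ± 0.44 (SD, n = 3; limma adjusted p = 6.63e-11). After IFNG 0 passed at 1 h (2 at an unadjusted p under 0.05, list median 0.01) and 8 rose at 4 h (0.53, all genes -0.01). Among its largest responses, Nfkbie, which encodes an NF-kB inhibitor, stood at 2.91 after LPS with IFNG at 2 h and Nfkb2, which encodes an NF-kB subunit, at 2.41 after LPS with 2MA at 4 h.

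The IFNG signalling genes, 14 of 15 tested, showed 6 rises and no fall at 1 h of IFNG (list median 0.25, all genes -0.01) and 3 rises and 1 fall at 1 h of LPS (0.06, all genes -0.01). Irf1 stood at 3.45 ± 0.50 at 1 h of IFNG and 0.60 ± 0.39 at 1 h of LPS (SD, n = 3; limma adjusted p = 4.78e-17 and 0.0445). Socs1, a feedback inhibitor of JAK kinases, stood at 2.96 ± 0.18 and 0.55 ± 0.19. By 4 h of LPS 10 rose and 1 fell (1.01, all genes 0.00), with Irf1 at 2.71 ± 0.36 and Jak2 at 2.76 ± 0.40. Irf8, a macrophage transcription factor gene, stood at 3.58 ± 0.18 after LPS with IFNG at 2 h.

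Among other inhibitory ligands and receptors, 10 of 12 tested, 3 rose and 3 fell after LPS at 4 h (list median 0.11, all genes 0.00). Lgals9, the gene of galectin 9, was at 2.11 and Cd47, the ligand of SIRP alpha, at 1.44, while Sirpa was at -1.04. In the SLAM family and adhesion list, 9 of 14 tested, 3 rose and 1 fell after LPS with IFNG at 4 h (list median 0.09, all genes -0.01), with the integrin gene Itgal at 2.47 ± 0.18 (SD, n = 3; limma adjusted p = 2.75e-15) and Icam2 at -0.69. Cmtm6, whose product stabilises PD-L1 at the surface, read 0.75 ± 0.13 after LPS, 0.63 ± 0.28 after IFNG and 1.36 ± 0.32 after both at 4 h (5.45e-07, 3.93e-05 and 2.48e-13). Marchf8, a ubiquitin ligase of CD86 and MHC class II, was the other tested gene of its list of 4, at -0.43 ± 0.09 after LPS with 2MA at 4 h (5.11e-05). Of the remaining named genes of these lists, Nectin2, an adhesion gene, stood at 1.02 after LPS with 2MA at 4 h, the integrin gene Itgb2 at 0.64 after LPS with IFNG at 4 h and the SLAM family gene Ly9 at 0.54 after LPS at 4 h.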

How the data were processed

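The deposited values are log2 ratios of Cy5 to Cy3 of 2-colour arrays, with the content of each channel per the labels. No source used here gives the authors' scanning, background correction or normalisation. A largest value of 6.64, log2 of 100, gave the scale, and the centring is unknown, with a median of 0 on every array. Exact zeros were read as missing, 8 of 480 among the members, and no member value reached the limit (range -0.93 to 5.95). Ratios were turned to treated over untreated, and a set value is the mean of both dye orientations. For Cd40 the orientation with treated RNA in Cy3 read higher by a median of 0.64, from -0.73 to 1.44 over 48 pairs. The median was 0.23 for Tnfsf9 and for Cd83 probe 10633, 0.01 for probe 11452 and -0.12 for Cd274. That mean balances only a gap that is constant. Before the turn, swapped arrays of a set would correlate below 0 over all probes, but 10 of 48 pairs correlated above 0 (range -0.78 to 0.40).

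Probes with at least 2 set values in every group were tested (13698). Symbols came from the platform annotation, updated through RefSeq, and probes of 1 gene were averaged, giving 11593 genes (9755 named). Limma 3.58.1 (R 4.3.3) fitted 1 mean per group over 48 set values, with moderated two-sided tests and Benjamini-Hochberg adjustment within each comparison. The script was tested on simulated data. Intervals used scipy 1.17.1 and plots matplotlib 3.10.9 (Python 3.11.15).

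Sets of the same number and time deviated together in all 6 comparisons of LPS with a second ligand against LPS (lowest correlation 0.119). They did so in 5 of 6 with the second ligand, 5 of 6 between single ligands and 4 of 6 with the sum. Between neighbouring times, sets of the same number deviated together in 6 of 11. The number pairs the samples in all of these comparisons. The random block does not join different times, so steps between times are paired by the fixed block only. For those comparisons the values with a random and a fixed block stand beside a member result where the random block changes the call, and the others are in the closing section.

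The members and lists were chosen with earlier results of these data known. The named genes are the members, per member the 3 genes with the highest correlation over the group means, and per list up to 4 called genes with the largest response in any group. Other list genes named were chosen after their values were seen. Alternatives were the treatment of zeros, centring, the filter, single probes, 1 dye orientation, only the groups compared, the set number as a block and each set left out. The channel labels give 2MA at 500 uM, and the description of 1 sample gives nM.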

Additional observations from a re-analysis of the deposited data

Results flagged for a closer look

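The difference between LPS with IFNG and LPS alone changed with time for Cd274: the change from 1 h to 4 h was -2.48 ± 0.32 (SE; limma adjusted p = 4.16e-06), from 3.16 to 0.68, in a comparison added after the values were seen. The joint response to LPS and IFNG set against the sum of the single responses lay on opposite sides of 0 at different times, in every set measured. For Cd274 it was 1.19 at 1 h, -1.07 at 2 h and -2.77 at 4 h, and for Cd40 1.24 at 1 h and -2.59 at 4 h. The sums at 4 h, 8.03 for Cd40 and 6.90 for Cd274, exceed the 6.64 ceiling of the values, which is shown for treated RNA in Cy5 only. On those arrays a joint value above the sum could not be read at 4 h for either gene, so the sign is not read as a change with time. The joint means at 4 h, 5.44 for Cd40 and 4.13 for Cd274, lay below the ceiling, and its part in the sign was not tested. The change of these 5 values with time was not tested. With 3 sets per group, no search for single outlying sets was made.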

How the results depend on the processing

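Over all alternatives no member result changed its direction while called. The same call was kept under every alternative by 56 of 64 responses, 15 of 24 differences between LPS with a second ligand and LPS, 18 of 24 differences from the sum, 19 of 24 differences between LPS with a second ligand and that ligand, 19 of 24 between single ligands, 27 of 44 between neighbouring times and 8 of 8 changes of a difference with time. A value in all 3 sets of every group could not be asked of Cd274, whose probe then is not tested. The log2 values below are those under the named setting, and the cause of a changed call was not tested.

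With zeros kept as 0, these did not pass: Cd274 after LPS with 2MA at 1 h (0.65), Cd40 after 2MA at 4 h (0.84), Cd83 (1.02 at 4 h) and Tnfsf9 (-1.06 at 2 h) after LPS with IFNG against LPS, and Cd83 against the sum at 2 h (-1.56), while Cd274 after LPS with IFNG against LPS at 4 h (1.29) passed. With only the groups compared, Cd40 (0.84 at 4 h) and Cd83 (1.31 at 2 h) after 2MA, Cd40 with IFNG against LPS at 2 h (1.58) and Cd83 against the sum at 2 h (-1.56) did not pass. Under it these passed: Cd40 (0.61) and Tnfsf9 (-0.55) after IFNG at 1 h, Tnfsf9 after IFNG at 2 h (-0.56), Cd83 with 2MA against LPS at 4 h (1.22), and against the sum Cd274 (1.19) and Cd40 (1.24) at 1 h and Cd83 (-0.99) and Tnfsf9 (-1.06) at 4 h. With treated RNA in Cy5 only, Cd40 after 2MA at 4 h (0.64), Tnfsf9 with IFNG against LPS at 2 h (-1.01) and Cd83 against the sum at 2 h (-1.53) did not pass, and Tnfsf9 after IFNG at 2 h (-0.68) did. With treated RNA in Cy3 only, Cd83 at 4 h (0.92) and Tnfsf9 at 2 h (-1.11) with IFNG against LPS did not pass, and Cd83 after 2MA at 4 h (0.67), Cd274 with IFNG against LPS at 4 h (0.95) and Cd83 against the sum at 4 h (-1.38) did. With a set value from 1 orientation accepted, an alternative chosen after seeing the data, Cd274 with IFNG against LPS at 4 h (0.76) passed. Among the other comparisons, zeros kept as 0 ended the calls of Cd274 with LPS and IFNG against IFNG at 1 h (1.10) and 4 h (0.69), Cd40 with IFNG against LPS as single ligands at 2 h (-1.09), Cd40 between 30 min and 1 h of LPS (1.33) and 1 and 2 h of IFNG (1.40), Tnfsf9 between 2 and 4 h of LPS (-0.92) and Cd274 between 1 and 2 h of LPS with IFNG (0.99), and Cd83 after IFNG against LPS at 4 h (-1.28) passed. With only the groups compared, Cd40 after IFNG against LPS at 2 h (-1.09), Cd274 with LPS and IFNG against IFNG at 4 h (0.69), Tnfsf9 between 2 and 4 h of LPS (-0.92) and Cd40 between 1 and 2 h of LPS with IFNG (1.23) and with 2MA (1.56) did not pass, while Cd40 after IFNG against LPS at 1 h (-0.99) and, between 1 and 2 h, Cd83 with IFNG (0.66) and Tnfsf9 with LPS and IFNG (-0.85) did. Treated RNA in Cy3 only ended the calls of Cd40 after IFNG against LPS at 2 h (-0.89) and 4 h (-1.04), of Cd40 between 30 min and 1 h (1.53) and 1 and 2 h (1.40) of LPS, 1 and 2 h (1.52) and 2 and 4 h (1.22) of IFNG and 1 and 2 h of LPS with IFNG (1.14), and of Tnfsf9 between 2 and 4 h of LPS (-0.91), and Cd83 between 30 min and 1 h of LPS (1.20) passed. Treated RNA in Cy5 only ended those of Cd40 with LPS and 2MA against 2MA at 1 h (1.12), Cd274 with LPS and IFNG against IFNG at 4 h (0.51), Cd40 between 30 min and 1 h of LPS (1.13) and 1 and 2 h of IFNG (1.28) and Tnfsf9 between 2 and 4 h of LPS (-0.93). Tnfsf9 between 2 and 4 h of LPS also did not pass with arrays centred on the nonzero median (-0.91) or 1 orientation accepted (-0.92), under which Cd83 between 30 min and 1 h (1.19) did.

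With the set number within each time as a random replicate block, these also passed: Cd274 (0.74 at 1 h) and Cd83 (1.22 at 4 h) with 2MA against LPS, Cd274 (0.72) and Cd40 (0.84) with IFNG against LPS at 4 h, and against the sum Cd274 at 1 h (1.19) and 2 h (-1.07) and Tnfsf9 at 4 h (-1.06). With the set number over all times as a fixed replicate block, Cd83 with 2MA against LPS at 4 h (1.22) and, against the sum, Cd274 at 2 h (-1.07) and Tnfsf9 at 4 h (-1.06) passed. The random block also gave calls to Cd40 after IFNG against LPS at 1 h (-0.99) and Cd274 with LPS and IFNG against IFNG at 2 h (0.51), and the fixed block to Cd83 between 30 min and 1 h of LPS (1.15) and Tnfsf9 between 1 and 2 h of LPS with IFNG (-0.85). Neither block changed any other call of a member.

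Leaving out 1 set at a time gave from 0.39 to 0.58 for Cd274 and from 0.56 to 1.07 for Cd40 after 2MA at 4 h, from 0.97 to 1.49 for Cd83 after 2MA at 2 h and from 0.54 to 0.72 for Cd274 after LPS with 2MA at 1 h. With IFNG against LPS it gave from 1.76 to 1.99 for Cd40 at 1 h, from 1.39 to 1.81 at 2 h, from 1.03 to 1.20 for Cd83 at 4 h, and for Tnfsf9 from -1.30 to -0.91 at 2 h and from -1.27 to -1.11 at 4 h. Against the sum at 2 h it gave from -1.64 to -1.49 for Cd83 and from -1.22 to -0.82 for Cd274. For Cd274 at 4 h of LPS, n is 2, so leaving out either leaves 1 set, assumed to vary like the other groups. Against the second ligand, it gave 0.94 to 1.29 at 1 h and 0.54 to 0.77 at 4 h for Cd274 with IFNG, and with 2MA 1.32 to 1.46 for Cd40 at 1 h and 0.67 to 1.28 for Tnfsf9 at 4 h. For Cd40 it gave -1.94 to -1.52 after 2MA against LPS at 1 h, and after IFNG against LPS -1.30 to -0.94 at 2 h and -1.62 to -0.88 at 4 h. Between neighbouring times of LPS it gave for Cd40 1.11 to 1.57, 1.12 to 1.75 and 1.40 to 1.56 in order, and from 2 to 4 h -1.35 to -1.05 for Cd83 and -1.32 to -0.64 for Tnfsf9. With IFNG it gave 1.09 to 1.61 for Cd40 and 1.53 to 1.61 for Cd274 from 1 to 2 h and 1.07 to 1.72 for Cd40 from 2 to 4 h. With LPS and IFNG it gave 0.84 to 1.57 for Cd40 and 0.87 to 1.17 for Cd274 from 1 to 2 h and -1.13 to -0.95 for Tnfsf9 from 2 to 4 h, and with LPS and 2MA 1.03 to 1.95, 0.94 to 1.54 and -1.75 to -1.03 for the same genes and steps.

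The number of genes that passed, with its lowest and highest value over the alternatives, was 121 genes (76 to 376) at 30 min of LPS. At 1, 2 and 4 h after LPS it was 650 genes (273 to 1564), 1857 genes (999 to 2625) and 3315 genes (2136 to 4357). At 1, 2 and 4 h after IFNG it was 131 genes (80 to 446), 398 genes (220 to 1410) and 1426 genes (826 to 2839). At 1, 2 and 4 h after 2MA it was 163 genes (20 to 1470), 154 genes (12 to 1331) and 232 genes (13 to 928). At 1, 2 and 4 h after LPS with IFNG it was 883 genes (445 to 2660), 2415 genes (1194 to 3407) and 3937 genes (2744 to 4653). At 1, 2 and 4 h after LPS with 2MA it was 632 genes (337 to 1230), 2063 genes (948 to 3212) and 3872 genes (2770 to 4439). For IFNG added to LPS it was 117 genes (67 to 177), 318 genes (99 to 730) and 481 genes (154 to 991), and against the sum 9 genes (3 to 19), 43 genes (7 to 83) and 314 genes (117 to 521). For 2MA added to LPS it was 9 genes (3 to 27), 11 genes (2 to 70) and 41 genes (1 to 209), and against the sum 2 genes (0 to 8), 2 genes (0 to 7) and 7 genes (0 to 51).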
